A study of Glycine max with 12 samples.

Results

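LOC100793725 (GLYMA03G35930, chromosome 3) and SYP24 (GLYMA19G38570, chromosome 19) are soybean genes that the array annotation names putative syntaxin-24-like. Each has 1 probe set, so the pair makes up 2 of the 66195 main probe sets of the array. The pair was picked by gene model because earlier results of the same arrays showed an aluminium (Al) response of LOC100793725 in both varieties and of SYP24 in 1 of them. The Al ratios, the variety ratios and the differences of the Al response are therefore given for the pair as descriptions with no test. Their change with time inside a treatment was not used in the choice, and it was tested.

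Roots of soybean (Glycine max) were profiled on 12 Affymetrix arrays, 1 for each combination of 2 varieties, 2 treatments and 3 times, to find genes that bear on Al tolerance. The labels call Guangfengmaliaodu (GF) Al-sensitive and KF Al-tolerant. All seedlings, 3 days old and raised in sterile sand, were moved to 0.5 mM CaCl2 at pH 4.3, so the control roots met the same acid, low-salt solution as the Al roots. Control solution held 0 µM and Al solution 25 µM of AlCl3, and harvests followed at 6, 12 and 24 h. No condition was repeated, and the labels do not say how many plants went into an array. RNA came from roots in bulk, so that more RNA per cell cannot be told apart from more cells that express a gene.

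The intensity that counted as background was read from 23 probe sets built to match no plant sequence. Their 95th percentile lay between 29.3 and 72.8 on the 12 arrays, with the highest value on the GF 24 h control array. Markers of root tissues passed it to different degrees: between 1 and 4 of 5 root hair, between 0 and 5 of 18 nutrient transporter and between 0 and 3 of 15 endodermis probe sets did so on an array. Of 43 shoot and 13 nodule probe sets, 2 of each passed on every array.

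Syntaxins are membrane proteins of the SNARE family, which pull vesicles and target membranes together and let them fuse, and in plants they serve secretion, cell plate formation and defence. Late embryogenesis abundant (LEA) proteins are instead known for accumulating in drying seeds and stressed tissues. The LEA-14 domain is also found in the NDR1/HIN1-like proteins, many of which sit at the plasma membrane and respond to pathogens. The soybean genome descends from an ancient duplication, which left many genes with a copy on another chromosome.

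The domain annotation of the pair did not match the syntaxin name. Both genes carry the LEA-14 domain in the deposited annotation, and neither carries a SNARE domain. The same held for most genes of that name: of 12 main probe sets called syntaxin-24-like, both members included, 10 had the LEA-14 domain, 0 had a SNARE domain and 2 had no domain entry. Another 104 probe sets were named for SNARE proteins or their partners (Sec1-like proteins, alpha-SNAP and NSF). Of these, 77 had a SNARE or Sec1-like domain and 0 had LEA-14. RefSeq lists GmLEA2-96 and GmSYP24 as synonyms of SYP24.

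The 24 probes of LOC100793725 span bases 42985148 to 42986060 on the minus strand of chromosome 3. They lie within its annotated transcript, which runs from 42985133 to 42986252. The 20 probes of SYP24 span bases 45459111 to 45459981 on the minus strand of chromosome 19, within a transcript annotated from 45458954 to 45460108. Positions are those of the array annotation, based on assembly V1.0. Per the annotation, the probes of both sets are specific to their gene.

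LOC100793725 was near the floor of the arrays in control roots and far above background in Al roots of both varieties. In GF its intensity was 2.98, 4.11 and 4.23 in control roots at 6, 12 and 24 h, and 391, 350 and 891 in Al roots. In KF it was 4.62, 3.57 and 2.63 in control roots and 422, 474 and 782 in Al roots. All 6 Al arrays lay above all 6 control arrays, and every control value lay below the background percentile of its array.

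SYP24 was likewise far above background in Al roots of GF, but not in those of KF. In GF its intensity was 4.45, 5.16 and 5.30 in control roots at 6, 12 and 24 h, and 142, 172 and 365 in Al roots. In KF it was 2.53, 2.62 and 2.80 in control roots and 2.44, 3.06 and 4.07 in Al roots. Only the 3 GF Al arrays passed the background percentile, and the control and Al arrays of KF overlapped.

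**Figure D1:**
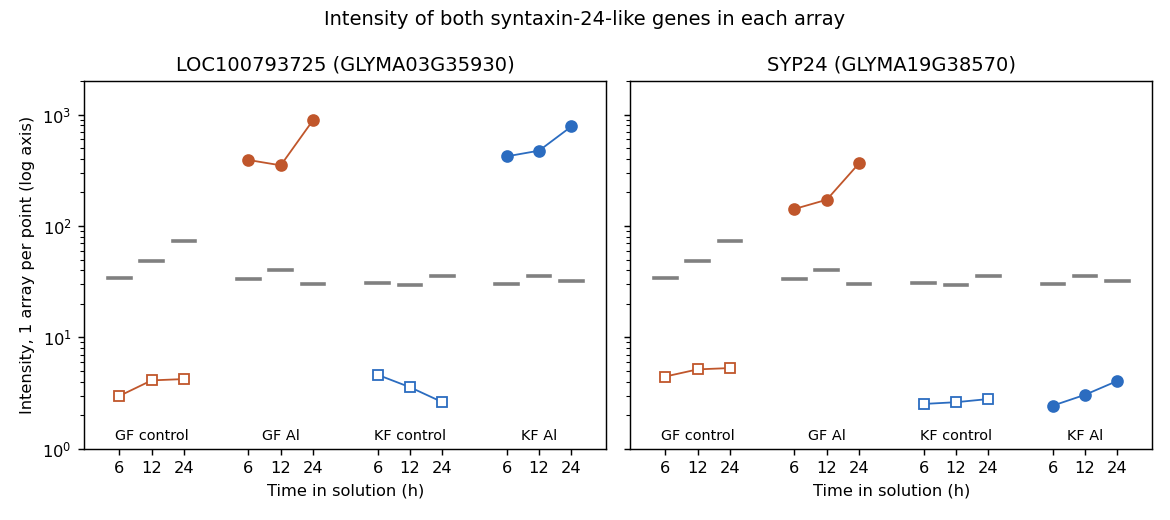
Intensity (log axis) of LOC100793725 and SYP24 against hours in solution, 1 array per point, with open squares for control roots, filled circles for Al roots, orange for GF and blue for KF. Grey bars mark the 95th percentile of the 23 background probe sets of each array. LOC100793725 lies above the bars in all 6 Al arrays, and SYP24 in the 3 Al arrays of GF.

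Over the 3 pairs of a variety, the log2 ratio of Al to control for LOC100793725 averaged 7.06 ± 0.65 (SD, n = 3 pairs) in GF and 7.26 ± 0.87 (SD, n = 3 pairs) in KF. A filter on mean intensity kept 49646 probe sets, both genes among them. On the deposited values LOC100793725 was among the probe sets at least 4-fold higher with Al in 6 of 6 pairs, which were 195, or 0.393%, of those tested. Counted over the 3 GF pairs only, that held for 0.463%, and over the 3 KF pairs only for 0.949%.

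Because the control values of the pair lay below background, the ratios are also given as lower bounds, with the dim value replaced by the background percentile of its array. On this basis LOC100793725 was at least 11.5-fold, 7.19-fold and 12.2-fold higher with Al in GF at 6, 12 and 24 h. In KF it was at least 13.6-fold, 16.2-fold and 22.0-fold higher at the same times.

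For SYP24 in GF the log2 ratios of Al to control were 4.996, 5.06 and 6.10 at the 3 times, with a mean of 5.39 ± 0.62 (SD, n = 3 pairs). As bounds, SYP24 was at least 4.18-fold higher at 6 h, 3.54-fold at 12 h and 5.02-fold at 24 h. In KF its log2 ratios were −0.05, 0.22 and 0.54, with a mean of 0.24 ± 0.30 (SD, n = 3 pairs), and all values lay below background.

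The homologues parted in KF. There LOC100793725 was at least 13.6-fold higher with Al at every time, while SYP24 stayed below background on all 6 arrays. In GF both passed background on all 3 Al arrays, with bounds of 7.19-fold and more for LOC100793725 and 3.54-fold and more for SYP24. Since both numbers are bounds, they do not say which homologue responded more in GF.

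On the deposited values SYP24 and 1 other probe set, LOC100779876 on chromosome 3, were at least 4-fold higher with Al in 3 of 3 GF pairs and under 2-fold either way in 3 of 3 KF pairs. These 2 made up 0.00403% of those tested, and the opposite pattern was met by 7, or 0.0141%. The bounds do not establish a 4-fold change for either gene at every time, since that of SYP24 at 12 h was 3.54-fold, and all KF values of both lay below background.

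Set against each other at equal treatment and time, the varieties had like levels of LOC100793725. In Al roots its log2 ratio of GF to KF was −0.11, −0.44 and 0.19 at the 3 times, a mean of −0.12 ± 0.31 (SD, n = 3 pairs). In control roots it averaged 0.09 ± 0.67 (SD, n = 3 pairs), on values that all lay below background. The sign changed between times in Al roots.

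SYP24 was higher in GF than in KF in every pair of Al roots. The log2 ratio of GF to KF was 5.86, 5.82 and 6.49 at 6, 12 and 24 h, a mean of 6.06 ± 0.37 (SD, n = 3 pairs). As bounds, GF was at least 4.74-fold, 4.87-fold and 11.4-fold higher. A ratio of at least 4-fold in all 3 Al pairs was met by 39 probe sets, or 0.0786%.

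In control roots the log2 ratio of SYP24 was 0.82, 0.98 and 0.92, a mean of 0.91 ± 0.08 (SD, n = 3 pairs), and the varieties did not overlap. Every one of these control values lay below the background percentile. A ratio over 1.5-fold in all 3 control pairs was met by 362 probe sets, or 0.729%. The array reads binding to 20 probes of a fixed sequence, so in KF a scarce transcript and one that the probes bind poorly cannot be told apart. The sequence of the gene in KF was not examined here, and probe binding was not tested.

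Between 6 and 24 h in Al roots LOC100793725 rose in both varieties, and SYP24 rose above background in GF only. This contrast, 24 h minus 6 h, came from a limma model of all arrays, with 2 pairs of arrays (1 per variety) behind each treatment and p-values adjusted over 49646 probe sets. LOC100793725 rose by 1.04 ± 0.31 log2 units (SE, limma adjusted p = 0.0419). The SE of LOC100793725 rests in part on its control values, which all lay below background. For SYP24 the model gave 1.05 ± 0.22 (SE, limma adjusted p = 0.0108), from changes of 1.36 in GF and 0.74 in KF. All values of SYP24 outside GF Al roots lay below background, and its SE rests largely on them. In this contrast limma called 9.21% of all tested probe sets higher and 14.4% lower.

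The summed intensity of the tissue marker lists moved between the same times in Al roots. From 6 to 24 h the nutrient transporter sum went from 129 to 279 in GF and from 105 to 252 in KF, and the endodermis sum from 287 to 88.1 and from 96.4 to 53.5. The root hair sum went from 247 to 162 in GF and from 257 to 131 in KF, the shoot sum from 699 to 462 and from 601 to 277, and the nodule sum from 772 to 572 and from 741 to 143. At 12 h the endodermis sum was higher than at either time, 324 in GF and 339 in KF. In KF Al roots 0 of its 15 probe sets passed background at 6 and at 24 h. Between 6 and 24 h these 5 lists moved in the same directions in both varieties. Their part in the changes with time of the pair and of the gene lists was not tested.

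The rise came after 12 h on the GF arrays. From 6 to 12 h the Al value of LOC100793725 in GF changed 0.895-fold, and from 12 to 24 h 2.54-fold. SYP24 in GF stood 1.21-fold above its 6 h value at 12 h, and went up 2.12-fold from 12 to 24 h. For LOC100793725 in KF both steps went up, 1.13-fold and then 1.65-fold.

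The call for LOC100793725 was lost without the filter (limma adjusted p = 0.0507) and with a time effect shared by both treatments (limma adjusted p = 0.34). Its change was 0.89 without the GF Al arrays and 1.19 without the KF Al arrays. Such a fit keeps 1 Al array per time and takes its spread from the control arrays only, so no p-value is given for it. Over all alternatives the adjusted p of LOC100793725 lay between 0.013 and 0.34, and that of SYP24 between 0.00471 and 0.0953. The KF values of SYP24 in this contrast all lay below background, and without the KF Al arrays its change was 1.36.

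In control roots every value of both homologues lay below background, so that the same test could hardly show a change. It gave −0.155 ± 0.31 for LOC100793725 (SE, limma adjusted p = 0.863) and 0.20 ± 0.22 for SYP24 (SE, limma adjusted p = 0.73). No probe set was called by limma in this contrast (0.0% of those tested), against 6287 at an unadjusted p below 0.05. Whether the change with time differed between treatments was not tested.

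The name syntaxin-24-like is carried by 10 other main probe sets, of which 9 passed the filter. Of these 9, 2 were called higher with Al in GF, 5 in KF and 0 lower in either variety by limma, against 0.719% of all probe sets called higher and 0.109% lower in GF, and 2.78% higher and 2.7% lower in KF. At an unadjusted p below 0.05 the counts in either direction were 8 in GF and 7 in KF. Over all 49646 tested probe sets they were 7667 and 13271. The median log2 response of the 9 was 1.501 in GF and 2.73 in KF, against −0.04 over all probe sets in each variety. The GF median is the deposited ratio of LOC100807174, whose values all lay below background, so its size is not known. The 9 genes were examined with earlier results of the arrays known. Log2 changes of relatives are differences of the deposited values, and where every control array of a variety lay below background a bound over the 3 pairs is added. That bound is a mean over the pairs and need not hold at each time. For the difference of the response between varieties 0 of the 9 were called, where 0.00403% of all probe sets were. For this difference 1 of the 9 had an unadjusted p below 0.05, against 2200 of all 49646 tested.

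The named gene nearest to the chromosome 3 homologue, LOC100793187, had a response of like size in both varieties. Its intensity in GF was 30.2, 34.3 and 34.6 in control roots at 6, 12 and 24 h, and 150, 173 and 216 in Al roots. In KF it was 43.4, 41.4 and 34.4 in control roots and 220, 223 and 364 in Al roots. It rose by 2.43 ± 0.27 log2 units in GF (SE, limma adjusted p = 0.0133) and by 2.73 ± 0.27 in KF (SE, limma adjusted p = 0.00435). All 3 of its GF control values lay below background, which made it at least 3.60-fold higher in GF.

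LOC100795302, further along chromosome 3, stood out for its late level. In Al roots it was 46.7, 35.2 and 456 in GF and 182, 159 and 500 in KF at 6, 12 and 24 h. Its control values lay between 2.52 and 21.5. Its change with Al was 4.50 ± 1.01 in KF (SE, limma adjusted p = 0.0489) and 4.93 ± 1.01 in GF, which missed the threshold (SE, limma adjusted p = 0.0885). As a bound it was at least 7.67-fold higher in KF and 1.84-fold higher in GF, where the Al value at 12 h did not exceed the background of its control array.

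On chromosome 7, LOC100784278 rose with Al in both varieties, by 3.54 ± 0.53 log2 units in GF (SE, limma adjusted p = 0.0378) and 4.16 ± 0.53 in KF (SE, limma adjusted p = 0.0106). As a bound it was at least 3.24-fold higher in GF and 3.96-fold higher in KF. LOC100780503, close to it, was higher by 2.92 ± 0.79 in GF and 3.43 ± 0.79 in KF without passing (SE, limma adjusted p = 0.161 and 0.053), with bounds of at least 3.86-fold and 6.40-fold. LOC100814808 on chromosome 2 was higher by 0.98 and 1.49 and did not pass either.

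On chromosome 19, LOC100807701 passed background in Al roots of KF, where SYP24 did not. It stood at 18.4, 14.9 and 14.7 in control roots of KF at 6, 12 and 24 h, and at 87.1, 97.0 and 308 in Al roots. In GF it was 11.6, 26.9 and 37.3 in control roots and 29.8, 42.3 and 124 in Al roots. It rose by 3.11 ± 0.42 log2 units in KF (SE, limma adjusted p = 0.013), and its change of 1.246 ± 0.42 in GF did not pass (SE, limma adjusted p = 0.237). As bounds, it was at least 4.32-fold higher in KF and 1.09-fold higher in GF, where only the Al value at 24 h exceeded the background of its control array. The difference of GF minus KF, −1.87 ± 0.60, did not pass its own test (SE, limma adjusted p = 0.953).

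LOC100807174 was called higher with Al in KF (limma adjusted p = 0.0451), with 6.38, 6.49 and 18.0 in Al roots against 1.87 to 1.90 in control roots. All 12 of its values lay below background, so the size of its response is not known. LOC100775381 and LOC100815702, on chromosomes 9 and 10, were not called for Al in either variety. LOC100782663, on chromosome 14, fell under the filter, with intensities of 1.60 to 2.52.

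**Figure D2:**
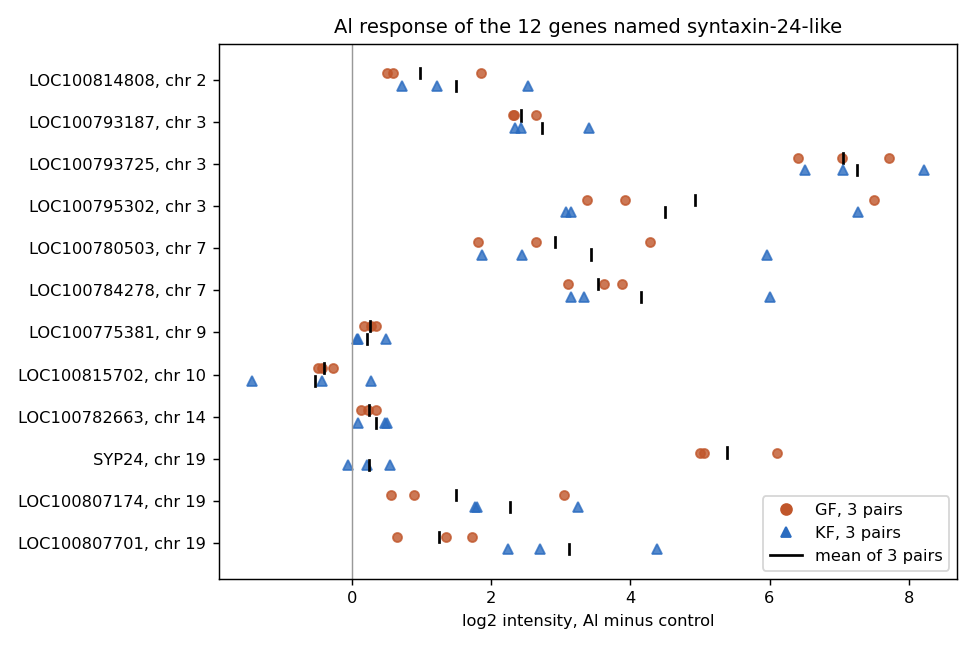
Log2 Al response of the 12 genes named syntaxin-24-like, with 3 GF pairs (circles) and 3 KF pairs (triangles) per gene and a black line at each mean. On these deposited values SYP24 has its GF points between 4.996 and 6.10 and its KF points between −0.05 and 0.54, with all KF values below background.

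The Al calls of these relatives depended on single pairs and on the scaling: with cyclic loess 1 was called higher in GF and 5 in KF. Leaving out any one of the 3 GF pairs made the count in GF 0 of 9, leaving out KF at 12 h made it 1, and leaving out KF at 24 h made it 4. The count in KF was 1 if KF at 12 h was dropped, and 3 if KF at 24 h, GF at 6 h or GF at 12 h was. LOC100793187 kept its call in KF without each pair in turn, with a highest limma adjusted p of 0.0411.

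Between 6 and 24 h in Al roots, 6 of the 9 relatives were called higher and 1 lower, against 9.21% and 14.4% of all tested probe sets. LOC100780503 rose by 2.89 ± 0.32 log2 units (SE, limma adjusted p = 0.00052), and LOC100807701 by 1.94 ± 0.40 (SE, limma adjusted p = 0.00978). With a time effect shared by both treatments 0 of the 9 were called in either direction, and 2 of all tested probe sets. In that fit the limma adjusted p was 0.178 for LOC100780503 and 0.0749 for LOC100807701. The change of LOC100807701 was 1.82 without the GF Al arrays and 2.05 without the KF Al arrays. LOC100807174, among those called higher, had no value above background. LOC100815702, called lower (limma adjusted p = 0.0191), had 1 value above background and lost the call with cyclic loess (limma adjusted p = 0.0578). The median of the 9 was 1.61, against −0.06 over all tested probe sets. Fits without the Al arrays of 1 variety keep 1 Al array per time, so their calls are not counted.

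Each member of the pair lies in a run of LEA-14 genes. A window of 30 kb to each side, chosen after the data were seen, held 12 probe sets around LOC100793725 and 7 around SYP24, with 4 LEA-14 probe sets in each, the members included. Both windows hold, in the same order, a LOG7-like gene, whose relatives release active cytokinin, and a gene for an aspartic proteinase like nepenthesin-2. The LEA-14 genes follow in both.

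None of these 4 genes ahead of the LEA-14 runs was called for Al by limma in either variety. LOC100792663 and LOC100788087, both LOG7-like, and the chromosome 19 proteinase gene LOC100788618 lay below background on every array. The chromosome 3 proteinase gene LOC100805927 was lower with Al by −0.79 in GF and −1.003 in KF without passing (limma adjusted p = 0.373 and 0.151), and it fell by 1.14 ± 0.31 between 6 and 24 h in Al roots (SE, limma adjusted p = 0.0287).

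Responses differed among adjacent genes of a run. On chromosome 3, the probe set of LOC100793187 lies 1919 bases from that of LOC100793725, and LOC100793187 was called in both varieties. So was B13-1-9, which has no LEA-14 domain. Its probe set lies 16205 bases from that of LOC100793725, on the other side. B13-1-9, named for its induction by the bacterial elicitor syringolide, rose by 4.70 ± 0.69 log2 units in GF (SE, limma adjusted p = 0.034) and 5.24 ± 0.69 in KF (SE, limma adjusted p = 0.0114). As bounds, it was at least 1.39-fold higher in GF and 5.12-fold higher in KF. In GF only its Al value at 24 h exceeded the background of its control array. The last LEA-14 gene of the run, GLYMA03G36000, was bright in control roots, from 653 to 813, and was not called for Al (0.02 in GF, −0.69 in KF).

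On chromosome 19, the probe set of LOC100807174 lies 2440 bases from that of SYP24, and that of LOC100807701 lies 6405 bases from it. GLYMA19G38600, at 12452 bases, closes that run, and its responses of 0.56 in GF and −0.10 in KF were not called. Both closing genes fell between 6 and 24 h in Al roots, GLYMA03G36000 by 1.44 ± 0.44 log2 units (SE, limma adjusted p = 0.0424) and GLYMA19G38600 by 1.27 ± 0.33 (SE, limma adjusted p = 0.0231). The varieties differed in size: GLYMA03G36000 went from 883 to 665 in GF and from 807 to 146 in KF. GLYMA19G38600 went from 121 to 70.0 in GF and from 135 to 39.7 in KF.

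**Figure D3:**
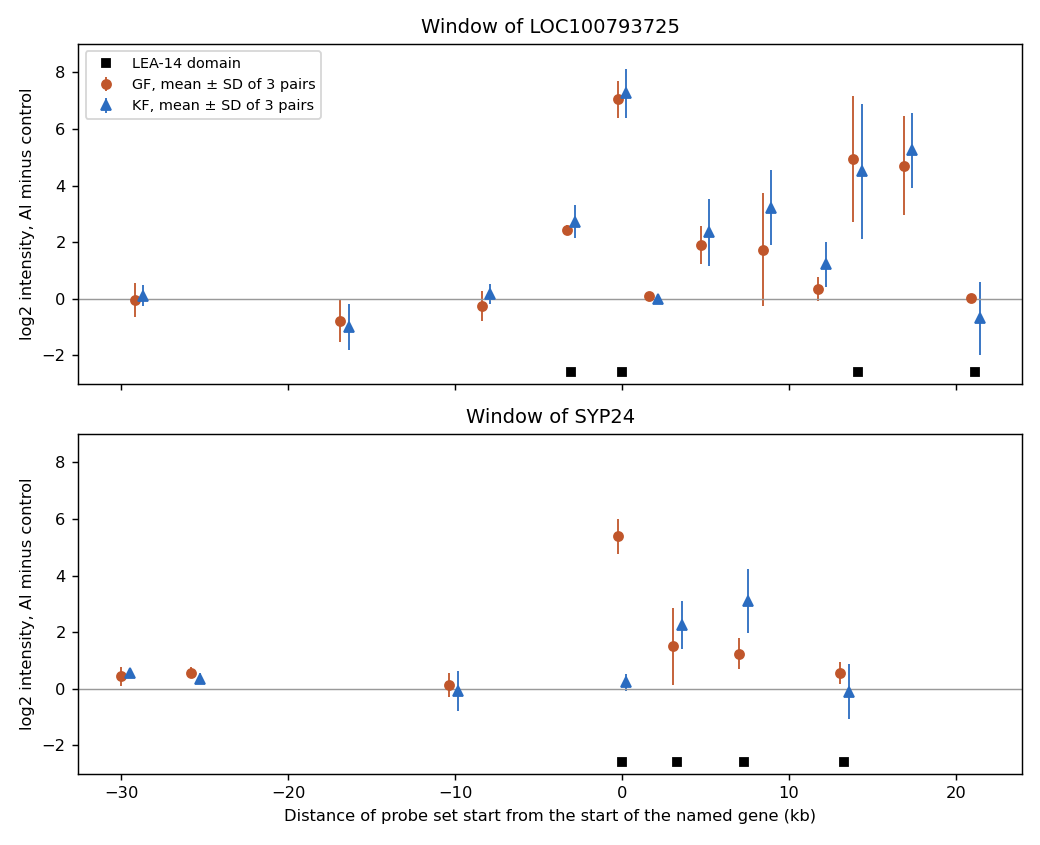
Mean log2 Al response ± SD of 3 pairs for every main probe set within 30 kb of LOC100793725 (top) and SYP24 (bottom), against the distance between probe set starts in kb. Orange circles are GF, blue triangles KF, and black squares mark LEA-14 genes. At 0 kb both varieties are near 7 for LOC100793725, whereas for SYP24 GF is at 5.39 and KF at 0.24.

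Across the whole array 88 other main probe sets carried the LEA-14 domain, including 8 named syntaxin-24-like, and 73 of them were tested. Of these, 5 were called higher and 0 lower with Al in GF, and 12 higher and 1 lower in KF. Over all tested probe sets the shares were 0.719% and 0.109% in GF and 2.78% and 2.7% in KF. With cyclic loess 2 were called higher in GF and 14 in KF. Their median log2 response was 0.05 in GF and 0.07 in KF, against −0.04 over all tested probe sets in each. The count in GF was 0 if any one GF pair was dropped, 1 if KF at 12 h was and 11 if KF at 24 h was. The count in KF was 2 if KF at 12 h was dropped, 7 if KF at 24 h was, and between 8 and 12 for each of the others.

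The LEA-14 gene outside the pair with the largest mean response was LOC100783747, an uncharacterized gene between the syntaxin-24-like genes of chromosome 7. It rose by 5.58 log2 units in GF (limma adjusted p = 0.0414) and 5.86 in KF (limma adjusted p = 0.0162), as bounds at least 9.89-fold and 17.2-fold. GLYMA01G43200, whose values in GF all lay below background, was called higher in GF (limma adjusted p = 0.0306) and rose at least 1.57-fold in KF (limma adjusted p = 0.00412). LOC100788592 rose by 2.01 and 2.41 (limma adjusted p = 0.0321 and 0.00786).

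The genes named for SNARE proteins or their partners, without the LEA-14 domain and called SNARE genes here, were counted in the same way. Of 97 tested among 104, 0 were called in GF by limma, against 0.719% of all tested probe sets called higher and 0.109% lower. At an unadjusted p below 0.05 there were 13 in GF, against 7667 of all 49646 tested. In KF 8 were called higher and 1 lower, against 2.78% and 2.7% of all tested probe sets. The 8 became 0 if KF at 12 h or KF at 24 h was dropped, 3 if GF at 6 h was, 2 if GF at 12 h was and 5 if KF at 6 h was. Dropping KF at 24 h gave 3 called higher in GF. The median log2 response was −0.01 in GF and 0.02 in KF.

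LOC100808718, syntaxin-121-like, belongs to a group whose Arabidopsis member works in secretion at the plasma membrane and in defence against fungi. It rose by 4.46 log2 units in KF, at least 3.99-fold (limma adjusted p = 0.0164), and its change of 3.30 in GF, at least 1.36-fold, did not pass (limma adjusted p = 0.0845). The GF bound came from 24 h, the only time at which the Al value exceeded the background of its control array. LOC100781527, a vesicle transport protein gene whose probe set may bind transcripts of several genes, was called higher in KF (limma adjusted p = 0.0397) and not in GF (limma adjusted p = 0.106), with 1 of 3 Al arrays above background in each. LOC100782188, for a vesicle-associated membrane protein, fell by 2.66 in KF (limma adjusted p = 0.0391) and was at −0.87 in GF (limma adjusted p = 0.487). In KF it passed background on 2 of 3 control arrays and 0 of 3 Al arrays, so the size of its fall is not known.

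Genes named NDR1, HIN1 or late embryogenesis abundant formed a list of 24, of which 19 were tested. By limma 0 were called for Al in either variety. Over all tested probe sets 0.719% were called higher and 0.109% lower in GF, and 2.78% and 2.7% in KF. At an unadjusted p below 0.05 there were 3 in GF and 7 in KF, against 7667 and 13271 of all 49646 tested. NDR1 is needed in Arabidopsis for resistance that several immune receptors trigger. Among the 5 with the largest changes, the NDR1-like LOC100781699 and NDR1b had no value above background, and NDR1A passed it on 1 Al array of each variety. The Lea5-like gene LOC100776073 was lower with Al by −1.004 in GF and −1.13 in KF without passing (limma adjusted p = 0.165 and 0.0608).

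With time in Al roots, from 6 to 24 h, the lists held calls in both directions. Of the 73 LEA-14 genes 19 were called higher and 12 lower, of the 97 SNARE genes 9 and 16, and of the 19 NDR1, HIN1 or LEA names 5 and 1, where 9.21% and 14.4% of all tested probe sets were. Cyclic loess turned the balance of the SNARE genes, to 14 higher and 9 lower, and gave 22 and 4 for the LEA-14 genes. The median changes were −0.06, −0.17 and 0.06 log2 units. With a time effect shared by both treatments 0 LEA-14 and 0 SNARE genes were called in either direction, and 2 of all tested probe sets. Calls of fits that keep 1 Al array per time are not counted here either.

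**Figure D4:**
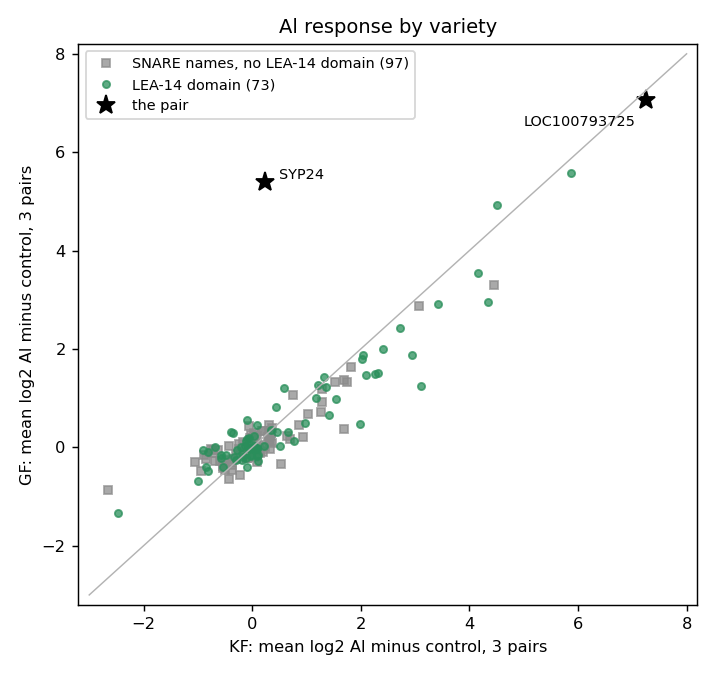
Mean log2 Al response of GF against that of KF, each over 3 pairs, for 73 LEA-14 genes (green circles), 97 SNARE genes without LEA-14 (grey squares) and the pair (stars), with a line of equal response. LOC100793725 lies near the line at 7.26 in KF and 7.06 in GF, and SYP24 lies off it at 0.24 in KF and 5.39 in GF.

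The genes whose level followed each homologue most closely were ranked by Pearson correlation of log2 intensity over the 12 arrays, among 33491 probe sets with 1 annotated gene. The arrays share the split into control and Al, which sets much of any such value. For LOC100793725 the first 10 had r from 0.989 to 0.995.

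The closest to LOC100793725 was LOC100795679, an uncharacterized gene (r = 0.995), whose intensity in GF was 44.1, 61.7 and 74.3 in control roots and 1115, 1416 and 2284 in Al roots. LOC100807969, for a subunit of the coatomer that coats vesicles leaving the Golgi, followed, and was at least 1.72-fold higher with Al in GF and 4.42-fold in KF. The next were ALDH3H2, for an aldehyde dehydrogenase (at least 2.54-fold and 4.83-fold), WRKY30, for a transcription factor of the WRKY family (at least 2.47-fold and 4.83-fold), and the beta-galactosidase gene LOC100813064 (at least 3.44-fold and 5.05-fold).

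The genes closest to SYP24 had lower correlations, from 0.932 to 0.978 for the first 10, and dimmer values. LOC100779876 came first (r = 0.978). In GF its intensity was 5.60, 6.15 and 5.44 in control roots at 6, 12 and 24 h and 38.3, 81.2 and 148 in Al roots. In KF all 6 values lay between 1.67 and 2.35. As a bound it was at least 1.56-fold higher with Al in GF.

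LOC100811856, uncharacterized, was next (r = 0.967), and passed background on 1 array, that of GF Al roots at 24 h. The yippee-like gene LOC100788878, uncharacterized LOC100805925 and LOC100785829, like the phloem lectin gene PP2-A1, completed the first 5 and lay below background on every array. The difference of the Al response between varieties was called by limma for none of the 9 of the first 10 that were tested.

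**Figure D5:**
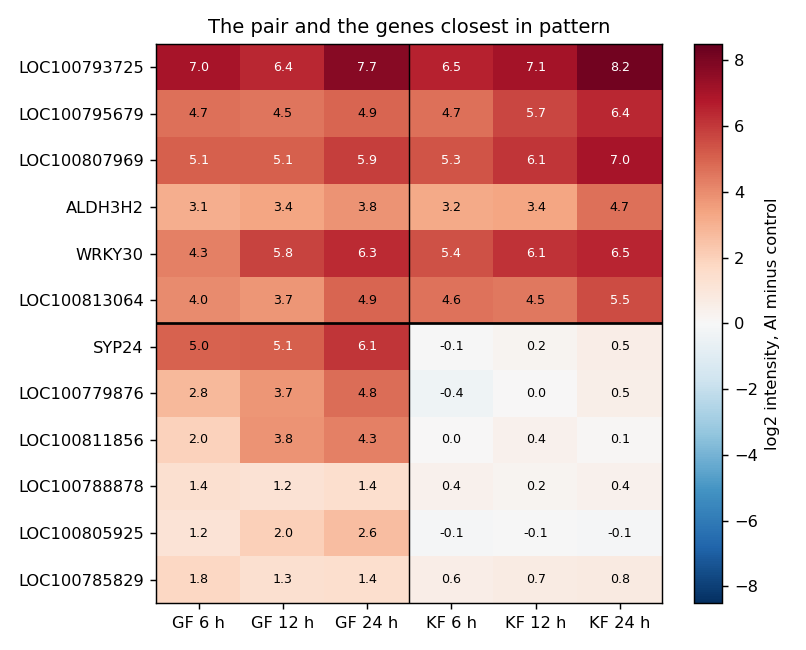
Log2 Al response in each of the 6 pairs for both homologues and the 5 genes closest in pattern to each, with GF in the left and KF in the right 3 columns. The upper block is red in all 6 columns, and the lower block is pale in the KF columns, where SYP24 runs from −0.05 to 0.54.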

How the data were processed

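The deposited values are intensities on a linear scale, 1 per probe set and array, normalized across the 12 arrays by the authors as read from the values; how probes were summarised and arrays normalized is not given in the sources used here. A further 24 deposited columns of per-sample values could not be tied to a sample by name and were left aside. Gene names come from the deposited annotation, with symbols updated through RefSeq (31963 of 33493 single-gene probe sets matched).

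Log2 of each intensity was taken with no pseudocount. Of 66195 main probe sets, those in the lowest 0.25 of mean log2 intensity (below 1.12) were left out, leaving 49646. Models were fitted with limma 3.58.1 (lmFit, eBayes with trend), run under R 4.3.3; the R package data.table (version 1.17.8) read the files. The Al effect had blocks of variety and time and a coefficient per variety. The time contrast had blocks of variety and treatment and time coefficients per treatment. Each left 4 residual degrees of freedom. P-values were adjusted by Benjamini-Hochberg over all 49646, and a probe set is called below 0.05. No condition was repeated, so the spread is that of an effect between times or varieties, and the number of arrays limits the precision.

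The pair and the lists were chosen with earlier results of these data known, and the 30 kb windows and the LEA-14 lists after these data were seen. Named were the pair, the first 5 of 10 genes closest in pattern to each, the relatives by name, the window genes, and the list members with the largest changes. On simulated data of 49646 probe sets, with 100 changed by 1 log2 unit and 100 by 2, the test recovered 21% and 76% for Al in GF, 25% and 84% for Al in KF, and 39% and 99% for the time contrast in Al roots, with 7, 3 and 16 false calls. Alternatives were cyclic loess, a pseudocount of 4, raising values to the background percentile, no filter, a stricter filter that kept 33098, a time effect shared by both treatments, and leaving out pairs or sets of arrays in turn.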

Additional observations from a re-analysis of the deposited data

Results flagged for a closer look

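The mean log2 Al response of SYP24 differed between the varieties by 5.15 (GF minus KF). It is listed because the test of that difference across all probe sets called it, as it called 2 of 49646 (0.00403%). The gene was chosen for this difference, so the call adds no independent evidence. In GF the 3 control values and in KF all 6 values lay below the background percentile, so the size of the difference is not known, and whether the probes bind the KF transcript was not tested.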

How the results depend on the processing

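Of 337 values recomputed under alternatives, 216 were taken as kept, and 100 lost the call or fell in a count of calls. A further 8 gained, 10 moved and 3 changed sign. Kept values held their direction and side of the threshold, moved less than the spread between pairs, or were counts near the main count. Among such counts, the 12 LEA-14 genes called higher for Al in KF became 8 without the GF 6 h pair. No cause was tested unless stated. With a pseudocount of 4 the mean Al response of LOC100793725 was 6.01 in GF and 6.17 in KF and that of SYP24 in GF 4.56, while the ratio of GF to KF for SYP24 was 0.43 in control and 4.89 in Al roots. With values raised to the background percentile the responses were 3.33, 4.08 and 2.07, and the Al ratio of SYP24 was 2.68; no value could be had where both arrays lay below it. Cyclic loess put the control ratio of SYP24 at 1.01.

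Leaving out 1 pair, LOC100793725 responded by 6.72 to 7.38 in GF and 6.78 to 7.64 in KF, with ratios of GF to KF of −0.21 to 0.44 in control and −0.27 to 0.04 in Al roots. SYP24 responded by 5.03 to 5.58 in GF and 0.09 to 0.38 in KF, with ratios of 0.87 to 0.95 in control and 5.84 to 6.18 in Al roots.

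For 24 h minus 6 h in control roots LOC100793725 was 0.072 with cyclic loess, 0.44 with a time effect shared by both treatments and −0.81 to 0.50 without 1 variety, positive without the KF control arrays; SYP24 was 0.15 to 0.25. In Al roots LOC100793725 was 1.04 without the filter (limma adjusted p = 0.0507), 0.44 with shared time and 0.89 to 1.19 without 1 variety. SYP24 was 0.62 with shared time and 0.74 to 1.36 without 1 variety.

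Without 1 pair, called probe sets numbered 5 to 1423 for Al in GF, 254 to 3191 in KF and 0 to 5 for their difference, which was 1 with cyclic loess. For time they numbered 4854 to 11581 in Al roots and 0 in control roots, and 2 in each with shared time. No paired analysis by replicate number was possible because each condition has 1 array.

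Limits are that every control value of the pair lay below background, so that the size of the responses is known only as bounds, and that each condition has 1 array.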
